A study of Homo sapiens with 14 samples.

Results

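Presomitic mesoderm was examined as 398 of the 3422 nuclei that passed the filters in 1 preparation of human gastruloids (11.6%, exact binomial 95% interval 10.6 to 12.8). These nuclei were chosen by measured values: the raw UMIs (unique molecular identifiers, each counting 1 captured RNA molecule) of TBX6 and MSGN1 summed to 2 or more, and SOX2 had at most 1. A nucleus passed with at least 1000 UMIs, of which at most 25% came from mitochondrial genes. All 3024 other passing nuclei served for comparison.

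The gastruloids were aggregates of H9, a human embryonic stem cell line, seeded at 800 cells per well and harvested at 72 h. The cells had been exposed to CHIR-99021, a GSK-3 inhibitor that activates WNT signalling, before aggregation, and again with a Rock inhibitor while the aggregates formed. No genetic change or comparison treatment was part of this preparation. RNA and open chromatin were read from the same nuclei, so that all values come from 1 line and 1 preparation, and no replicate, test or p-value could be given. Bulk libraries of the same study were not used here.

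Presomitic mesoderm is the unsegmented tissue on either side of the embryonic midline that is cut into somites, the blocks that give rise to vertebrae, skeletal muscle and dermis. Its posterior part is maintained by WNT and FGF signals and carries the T-box factor TBX6 and the bHLH factor MSGN1. NOTCH signalling drives oscillating genes such as HES7 and LFNG through it, and at its anterior end MESP2 and its partners set the next boundary. Neuromesodermal progenitors, which carry SOX2 and TBXT, are a known source of this tissue.

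All levels are the UMIs of a gene summed over nuclei, scaled to 1e+06 UMIs summed over those nuclei (CPM), and each fold is a ratio of 2 such levels. Their 95% intervals are Poisson intervals that cover counting error only, not the variation between preparations. Levels were compared between groups of nuclei and not between genes, since no gene length entered them.

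The rule reads raw UMIs and therefore read depth. The presomitic nuclei held a median of 19453 UMIs and the other nuclei 15855, with mitochondrial medians of 15.4% and 15.6%. Among nuclei with at least 1000 but under 5000 UMIs, 3.56% were presomitic (1.55 to 6.89), against 16.6% (12.2 to 21.8) of those with 30000 or more. After each nucleus with at least 5000 UMIs was thinned to 5000, the rule found 137 of 3197 nuclei (4.29%). Scrublet marked 12 presomitic nuclei (3.02%) and 58 others (1.92%) as doublets, and they were kept.

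**Figure D1:**
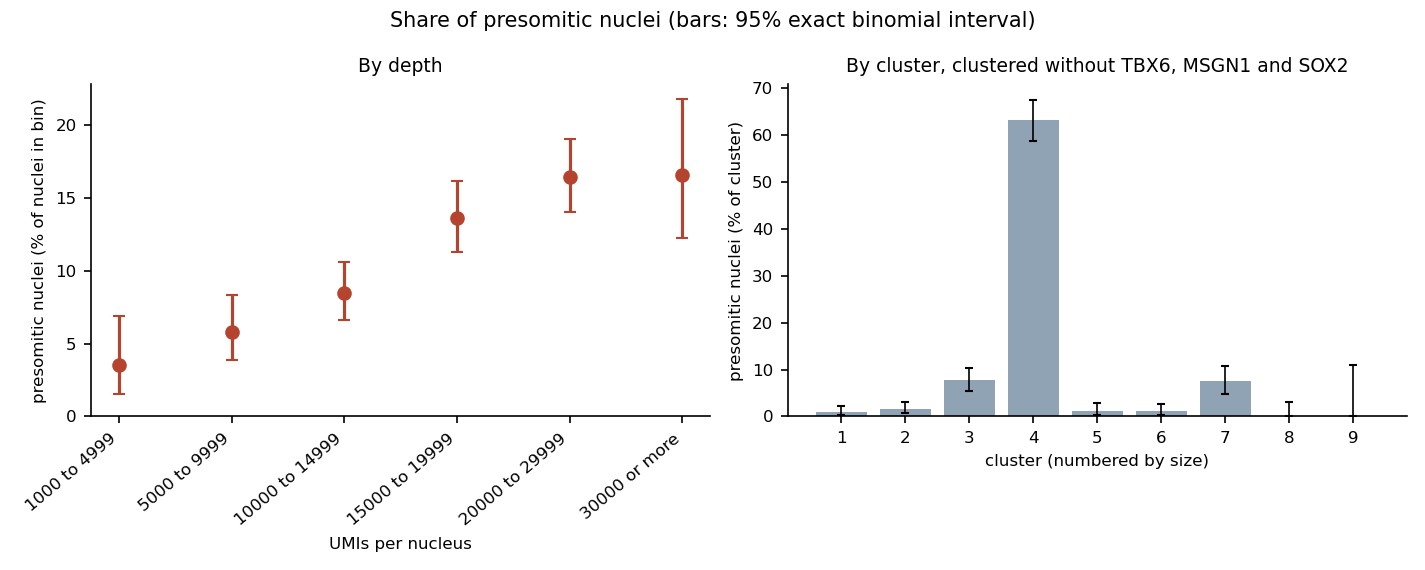
Share of presomitic nuclei (% of the nuclei in a bin or cluster, with exact binomial 95% intervals) by UMIs per nucleus on the left and by cluster on the right. The share ran from 3.56% in the shallowest bin to 16.6% in the deepest, and cluster 4 alone was mostly presomitic (63.1%).

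Within the chosen nuclei, TBX6 had a median of 3 UMIs (0 to 11) and MSGN1 a median of 1 (0 to 7). Both genes were seen in 198 nuclei, TBX6 alone in 190 and MSGN1 alone in 10. SOX2 was at 0 in 318 and at 1 in 80. Just inside the limit, 115 nuclei had a TBX6 and MSGN1 sum of 2. Just outside it, 427 nuclei had a sum of 1, and another 50 had a sum of 2 or more but SOX2 of 2 or more. These counts only restate the rule.

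Summed levels of the rule genes followed from the choice. TBX6 (ENSG00000149922) stood at 167 CPM (159 to 177) in presomitic nuclei and 10.4 (9.56 to 11.4) in the others. MSGN1 (ENSG00000151379) stood at 54.0 (49.1 to 59.4) and 3.26 (2.78 to 3.796), and SOX2 at 9.94 (7.88 to 12.4) and 52.1 (50.1 to 54.1). To separate the choice from the reading, the UMIs of every nucleus were also divided at random into 2 parts, the rule was applied to the first and levels were read from the second. In the second part TBX6 was 9.97-fold (8.74 to 11.4) and MSGN1 13.9-fold (10.9 to 17.8) higher in the 267 nuclei so chosen, and SOX2 was at 0.395 of the others' level. Both parts came from the same nuclei and these are the rule genes. The division therefore removes shared counting error only and does not check the label.

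TNFRSF11A (ENSG00000141655), the receptor RANK, is the marker given for these nuclei that the rule did not read. Because members and lists were chosen with earlier results of these data known, TNFRSF11A is no independent check of the label. It had 282 UMIs in the 398 presomitic nuclei and 148 in the 3024 others, or 35.0 (31.1 to 39.4) against 2.91 CPM, a fold of 12.0 (9.84 to 14.8). The level was 5.27 in nuclei with SOX2 and TBXT, 5.05 in nuclei with SOX2 but without TBXT, 2.28 in segmenting nuclei, 1.19 in PAX3 nuclei and 3.64 in the remaining ones. Thinned to 5000 UMIs, 13.6% of presomitic nuclei (10.3 to 17.4) had a UMI of it, against 0.468% of PAX3 nuclei (0.152 to 1.09), a later paraxial class in which it is not a marker. Unthinned, these shares were 34.4% and 1.46%, at median depths of 19453 and 14340.5 UMIs. Under the other settings tried, the fold lay between 6.96, with SOX2 required to be 0, and 14.8, with at most 15% mitochondrial UMIs.

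Those 5 comparison classes were set by raw UMIs in a fixed order and do not overlap. Nuclei with 2 or more of both SOX2 and TBXT numbered 148, and those with 2 or more of SOX2 alone numbered 390. Of the rest, 531 had 2 or more UMIs of PCDH8 and RIPPLY1 and are called segmenting, 1098 had 2 or more of PAX3, and 857 remained.

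Over all genes, 256 of 15360 measured genes (1.67%) were at least 2-fold higher in presomitic nuclei and 852 (5.55%) at least 2-fold lower. A gene was measured with 100 or more UMIs over both groups. The median fold of all measured genes was 0.974. Since the same nuclei were used for the choice and for the levels, these counts describe the chosen group and test nothing.

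Of 13 presomitic genes beside the rule genes, 5 were at least 2-fold higher (1.67% of all genes) and 0 at least 2-fold lower (5.55%), and their median fold was 1.62. The 2-fold genes were TNFRSF11A, DLL1, DLL3, CITED1 and RSPO3. DLL1, a NOTCH ligand, stood at 203 CPM against 44.7 (fold 4.54, 4.26 to 4.84), and DLL3, a relative of the ligands that acts inside the cell, at 663 against 149.9 (fold 4.42, 4.27 to 4.58). CITED1, a transcriptional co-regulator, was 3.99-fold higher (3.504 to 4.55) and RSPO3, a secreted enhancer of WNT signalling, 2.75-fold (2.62 to 2.89).

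The remaining presomitic genes lay within 2-fold. HES7, the oscillating repressor of the segmentation clock, had 162 against 83.0 CPM (fold 1.95, 1.83 to 2.08). WNT3A, FGF17 and MIXL1, genes of the posterior tail bud, had folds of 1.62 (1.41 to 1.85), 1.62 (1.52 to 1.72) and 1.57 (1.36 to 1.82). LFNG, a glycosyltransferase that modifies NOTCH and also oscillates, was nearly level at 1.08 (1.01 to 1.16), as was CYP26A1, which degrades retinoic acid, at 1.13 (0.730 to 1.68). EVX1 had a fold of 1.42 (0.965 to 2.04). TBXT, the T-box factor of the primitive streak and notochord, was below the other nuclei at 46.3 against 68.8 (fold 0.674, 0.604 to 0.750).

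Several of these folds depended on which nuclei stood in the comparison. A cluster of 509 nuclei with high axial (node and notochord) genes, described below, was rich in TBXT and HES7. With that cluster left out of both groups, a setting chosen after the data were seen, the median of the 13 genes was 3.22. In that setting 8 of the 13 were at least 2-fold higher, beside 292 of 14485 measured genes. HES7 then had a fold of 3.22 (2.98 to 3.47), WNT3A of 3.58 (2.96 to 4.33) and MIXL1 of 2.59 (2.16 to 3.11), and TBXT turned to 1.38 (1.19 to 1.59). The median was 2.51 in nuclei with at most 15% mitochondrial UMIs. LFNG fell below 1 under 3 settings (lowest 0.840) and FGF17 under 1 (0.959). FGF17 was highest, at 554 CPM, in a cluster of 418 nuclei, of which 223 had SOX2 without TBXT and 75 had both. Its level was 167 in the cluster that held most presomitic nuclei. CYP26A1, with 29 UMIs in presomitic nuclei, reached 2.58 (1.49 to 4.28) in the divided UMIs.

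**Figure D2:**
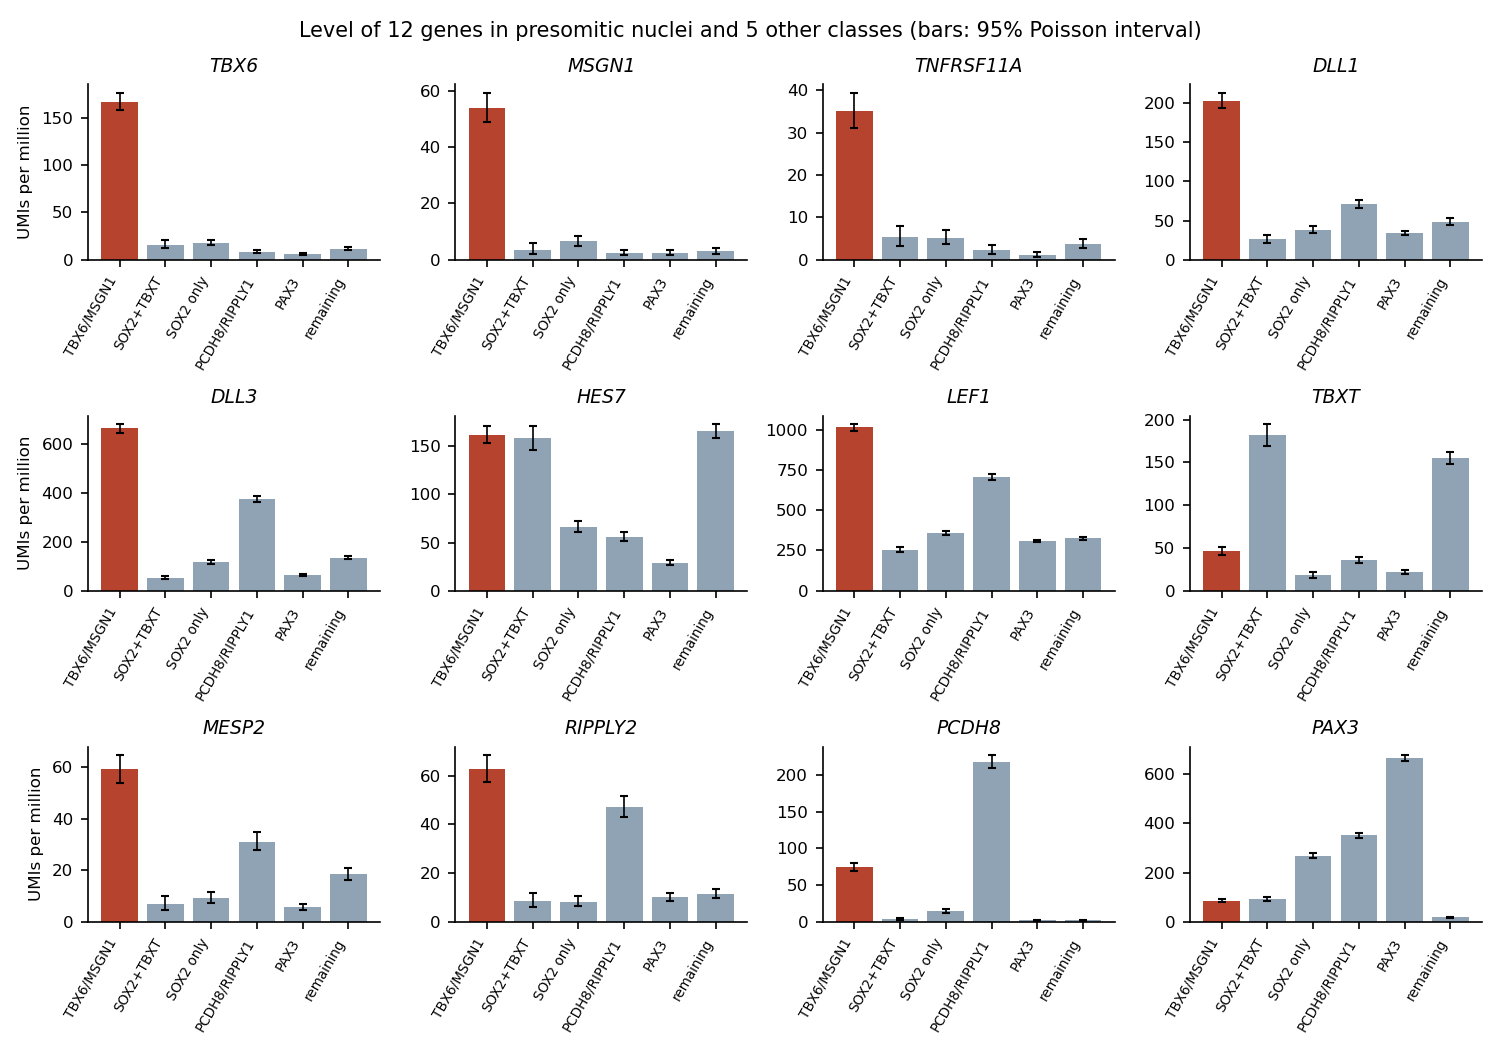
Levels of 12 genes (CPM, linear axes from 0) in presomitic nuclei (red) and the 5 other classes (grey), with 95% Poisson intervals over 1 preparation. TNFRSF11A, DLL1, DLL3 and LEF1 were highest in presomitic nuclei, whereas HES7 was about as high in nuclei with SOX2 and TBXT and in the remaining nuclei; TBX6, MSGN1, PCDH8, PAX3 and TBXT entered the definitions of classes.

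Between classes, DLL3 stepped down from 663 CPM in presomitic to 376 in segmenting nuclei, and stood at 134 in the remaining, 117 in SOX2 nuclei without TBXT, 65.0 in PAX3 nuclei and 52.7 in nuclei with SOX2 and TBXT. DLL1 was 2.87-fold higher (2.63 to 3.14) than in segmenting nuclei, which held the next highest level (70.7). HES7 had another order. Its level was 162 (153 to 171) in presomitic nuclei, 158 in nuclei with SOX2 and TBXT and 166 in the remaining ones, values that did not differ beyond their counting error, and 29.1 to 66.1 in the other 3 classes.

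The ATAC peaks of the same preparation were called over all nuclei together, so they describe the whole gastruloid. RefSeq start windows of 300 bases, 250 before and 50 after a start site on GRCh38.p14, were matched by symbol. A window overlapped a peak for 12 of the 12 presomitic genes and 9 of the 9 segmenting genes with a window, beside 60.6% of 27305 genes. DLL1, DLL3, FGF17 and MESP1 were not matched. The median number of peaks within 50 kb of the start was 13.5 for the presomitic list, 15 for the segmenting list and 9 over all genes. It was higher still for the somite list (15.5) and the axial list (17), so it does not set presomitic genes apart. Of the matched genes of those lists, 8 of 10 and 3 of 5 had a peak at a start. The values over all genes include genes not measured here. Peaks at the starts of MSGN1 (chr2:17815802-17816643), TBX6 (chr16:30091552-30092361), TNFRSF11A (chr18:62324823-62325726) and MESP2 (chr15:89776126-89776978) were 842, 810, 904 and 853 bases wide.

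The rule read TBX6 and MSGN1, TNFRSF11A was higher in these nuclei, and MESP2 marked a subset of them. The windows of these 4 genes are shown because a peak overlaps each one. They are RefSeq sequences on GRCh38.p14, 5′ to 3′ on the strand of the gene, at chr16:30091875-30092174 (minus) for TBX6, chr2:17816210-17816509 (plus) for MSGN1, chr18:62325060-62325359 (plus) for TNFRSF11A and chr15:89776082-89776381 (plus) for MESP2. Capitals mark the E-box CANNTG, which bHLH factors such as MSGN1 and MESP2 bind, the T-box letters TCACACC and the TCF/LEF letters CTTTGA, searched on both strands.
TBX6: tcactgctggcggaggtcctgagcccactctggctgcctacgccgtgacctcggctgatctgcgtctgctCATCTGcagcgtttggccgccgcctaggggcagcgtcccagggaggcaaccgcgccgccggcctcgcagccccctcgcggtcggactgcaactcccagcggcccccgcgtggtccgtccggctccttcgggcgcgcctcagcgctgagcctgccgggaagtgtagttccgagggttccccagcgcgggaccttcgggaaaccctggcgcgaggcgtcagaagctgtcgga
MSGN1: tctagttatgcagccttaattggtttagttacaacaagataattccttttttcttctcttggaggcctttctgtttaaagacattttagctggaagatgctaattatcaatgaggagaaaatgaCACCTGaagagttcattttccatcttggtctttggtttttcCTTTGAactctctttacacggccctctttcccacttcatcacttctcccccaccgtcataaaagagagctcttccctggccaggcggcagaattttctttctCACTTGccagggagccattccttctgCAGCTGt
TNFRSF11A: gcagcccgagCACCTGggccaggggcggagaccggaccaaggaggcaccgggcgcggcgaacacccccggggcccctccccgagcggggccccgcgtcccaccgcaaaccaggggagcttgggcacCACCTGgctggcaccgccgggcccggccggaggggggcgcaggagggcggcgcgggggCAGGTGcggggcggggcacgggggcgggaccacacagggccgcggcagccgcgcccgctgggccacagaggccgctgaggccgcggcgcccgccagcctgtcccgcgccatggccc
MESP2: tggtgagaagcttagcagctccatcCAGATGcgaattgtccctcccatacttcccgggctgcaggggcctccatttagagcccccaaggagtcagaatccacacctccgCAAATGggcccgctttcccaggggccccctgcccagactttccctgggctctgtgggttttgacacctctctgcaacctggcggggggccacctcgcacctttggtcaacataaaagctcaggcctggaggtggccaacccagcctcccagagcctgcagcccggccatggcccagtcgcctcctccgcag
E-boxes were found at 1, 3, 3 and 2 places, and 68.7% of 34796 windows of this length held at least 1 and 15.3% at least 3. All 3 E-boxes of TNFRSF11A read CACCTG on one strand or the other. That sequence occurred in 20.6% of windows and at 3 or more places in 0.621%, a count made after the sequence was seen. CTTTGA stood in the MSGN1 window, 85 bases before the start, and in 12.9% of all windows. The letters TCACACC were in none of these 4 windows and in 3.46% of all. A match of letters is a description and not a binding site.

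Genes of the segmenting list marked a subset of presomitic nuclei. Of 10 measured, 3 were at least 2-fold higher (1.67% of all genes) and 2 at least 2-fold lower (5.55%), with a median fold of 1.01. MESP2, the bHLH factor that positions the somite boundary, stood at 59.2 CPM (54.1 to 64.8) against 14.3, a fold of 4.13 (3.67 to 4.64). Its paralogue MESP1 was 5.38-fold (4.39 to 6.58) and RIPPLY2, a co-repressor that ends TBX6 activity, 3.63-fold higher (3.25 to 4.05). Against the segmenting class alone, MESP2 was 1.90-fold (1.65 to 2.20), MESP1 4.96-fold (3.57 to 7.01) and RIPPLY2 1.33-fold higher (1.17 to 1.51). RIPPLY1, which helped define that class, was at 41.9 against 244 CPM there.

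PCDH8, a protocadherin of the forming somite, changed direction with the rule. Its fold over all other nuclei was 1.59 (1.45 to 1.74), 0.972 when a TBX6 and MSGN1 sum of 3 was required, 0.906 in the divided UMIs and 0.610 (0.481 to 0.764) when the rule was applied to thinned nuclei. DMRT2 and CER1 were the lower genes, with folds of 0.417 and 0.379.

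Somite genes were mostly low against all other nuclei pooled. Of 13 measured, 0 were at least 2-fold higher (1.67% of all genes) and 8 at least 2-fold lower (5.55%), with a median fold of 0.331. The comparison class mattered. Summed over the list, the level was 732 CPM in presomitic nuclei, 1930 in PAX3 nuclei and 1632 in segmenting nuclei. It was 796 in SOX2 nuclei without TBXT, 530 in the remaining nuclei and 288 in nuclei with SOX2 and TBXT. PAX3, a factor of the dermomyotome, had 85.0 against 343 CPM (fold 0.248, 0.229 to 0.268). With a TBX6 and MSGN1 sum of 1 admitted PAX3 stood at 0.549, no longer 2-fold lower, and with the rule on thinned nuclei at 0.128. MEOX2 had a fold of 0.161 and EDNRA of 0.189. By contrast FOXC1 and FOXC2, forkhead factors of presomitic and somitic mesoderm alike, had folds of 1.32 (1.23 to 1.42) and 1.25 (1.17 to 1.33), and MEOX1 had 0.801 (0.755 to 0.850).

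Neural and axial genes were mostly below the other nuclei. Beside SOX2, which the rule bounded, 3 of 4 measured neural and neuromesodermal genes were at least 2-fold lower (5.55% of all genes), namely SOX3 at 0.230 (8 UMIs), NKX1-2 at 0.392 and IRX3 at 0.301. The rule also placed all 538 nuclei with 2 or more SOX2 UMIs among the others. The part of that bound in these folds was not tested. Of 8 axial genes 6 were at least 2-fold lower (5.55% of all genes), with a median of 0.430. Summed over the list, axial genes held 203 CPM in presomitic nuclei and 414 in the others, and 0 of the 8 had no UMI. By class, the sum was 1092 in the remaining nuclei and 893 in nuclei with SOX2 and TBXT. It was 191 in segmenting nuclei, 118 in SOX2 nuclei without TBXT and 77.9 in PAX3 nuclei. With the axial cluster left out, 2 of 5 measured axial genes were at least 2-fold lower, beside 691 of 14485 genes. Of 6 endoderm, 8 lateral and intermediate mesoderm, 6 endothelial and blood, and 5 neural crest markers, 4, 4, 4 and 4 had no row in the table used here, among them SOX17, HAND1, PECAM1 and SOX10. The summed levels of those with a row were 10.9 against 12.8 CPM for endoderm, 15.2 against 16.2 for lateral and intermediate mesoderm, 2.98 against 3.01 for endothelium and blood, and 38.1 against 30.2 for neural crest. Single genes differed more. FOXF1, a lateral mesoderm factor, had 34 UMIs against 67 (fold 3.21, 2.06 to 4.92), while LHX1, a factor of intermediate mesoderm, had 18 against 322 (0.354) and the apolipoprotein gene APOA1 15 against 193 (0.491).

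**Figure D3:**
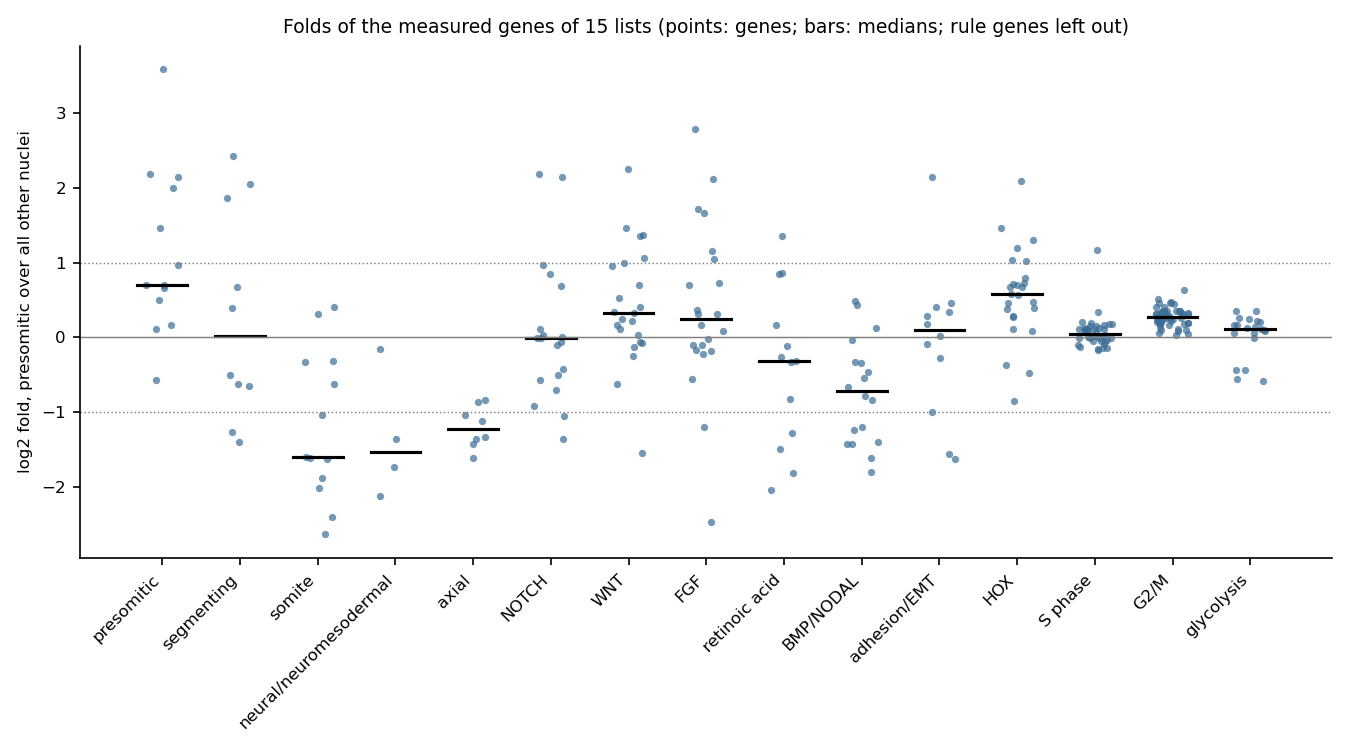
Fold of presomitic over all other nuclei (log2 scale) for each measured gene of 15 lists, with bars at the medians and TBX6, MSGN1 and SOX2 left out; dotted lines mark 2-fold. Presomitic and HOX genes lie mostly above 0 and somite, axial and BMP genes mostly below, while the 52 G2/M genes form a narrow band just above 0.

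NOTCH genes went both ways among receptors and among targets. Beside the ligands above, JAG1 was level at 0.935 (0.815 to 1.07), and the receptor NOTCH1 was 1.61-fold higher (1.51 to 1.72) while NOTCH2 had a fold of 0.676. Among the targets, HES6 had 1.79 and HES7 1.95, but HES1 0.390 (0.328 to 0.460) and HES5 0.484. RBPJ, the DNA-binding effector of the pathway, had a fold of 1.03 (0.966 to 1.09). In all, 2 of 19 measured genes were at least 2-fold higher (1.67% of all genes) and 2 at least 2-fold lower (5.55%).

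Of 23 measured WNT genes, 5 were at least 2-fold higher (1.67% of all genes) and 1 at least 2-fold lower (5.55%), with a median of 1.26. WNT8A, a ligand of the primitive streak, stood at 21.2 against 4.46 CPM (fold 4.76, 3.88 to 5.84). WNT5A, a ligand of the posterior embryo, had a fold of 2.09 (1.99 to 2.19). LEF1, the DNA-binding partner of beta-catenin, stood at 1013 (991 to 1036) against 394, a fold of 2.57 (2.51 to 2.64), and between 253 and 706 in each of the 5 classes. DKK1, a secreted inhibitor, had a fold of 2.56 (2.38 to 2.76), whereas the feedback genes AXIN2, NKD1, SP5 and RNF43 lay between 0.958 and 1.26.

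Of 22 FGF genes, 6 were at least 2-fold higher (1.67% of all genes) and 2 at least 2-fold lower (5.55%), with a median of 1.18. The ligand FGF4 had 73 UMIs against 67 in all others (fold 6.89, 4.88 to 9.75), FGF3 had a fold of 4.33 (3.71 to 5.05), FGF18 of 3.29 (3.02 to 3.57) and FGF9 of 3.18 (2.88 to 3.51). FGF8, the ligand best known for the posterior gradient, was not among them at 48.7 against 56.6 (0.860, 0.772 to 0.957). DUSP6, a phosphatase induced by FGF signalling, was 2.22-fold higher (2.02 to 2.45). The receptors differed: FGFR1 was near level at 0.928, FGFR4 2.08-fold higher (1.54 to 2.77), and FGFR2 at 9.32 against 51.4 CPM (fold 0.181, 0.142 to 0.228). With a sum of 1 admitted FGFR2 stood at 0.558, no longer 2-fold lower, and with the rule on thinned nuclei at 0.0597.

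Most retinoic acid and BMP genes lay within 2-fold. Of 13 retinoic acid genes 1 was at least 2-fold higher (1.67% of all genes) and 4 at least 2-fold lower (5.55%), with a median of 0.801. STRA6, a retinol transporter, had a fold of 2.55 (2.39 to 2.72) and RDH10, which makes retinal, one of 0.243 (0.218 to 0.271). ALDH1A2, which makes retinoic acid in somites, had 0.796 (0.729 to 0.867). Among 18 BMP and NODAL genes, 0 were at least 2-fold higher and 7 at least 2-fold lower, beside the same shares of all genes, with a median of 0.606. FST, an activin antagonist, was at 222 against 775 CPM (0.287, 0.273 to 0.300), and BMP5 and BMP7 had folds of 0.371 and 0.424.

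Of 12 adhesion and EMT genes, SNAI1, the repressor of epithelial genes at gastrulation, was 4.40-fold higher (3.20 to 6.02; 71 against 102 UMIs). EPCAM (0.340), TWIST1 (0.324) and fibronectin FN1 (0.4999) were lower. The cadherins CDH2 and CDH11 had folds of 1.13 and 1.01.

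HOX genes, which encode position along the body axis, had folds above 1 for 22 of 25 measured members, beside a median fold of 0.974 over all measured genes. Of the 25, 6 were at least 2-fold higher (1.67% of all genes) and 0 at least 2-fold lower (5.55%). Summed over the list, the level was 1390 CPM in presomitic nuclei, 1306 in SOX2 nuclei without TBXT and 1124 in nuclei with both. It was 808 in segmenting, 723 in remaining and 675 in PAX3 nuclei. The largest folds were in the 3' groups. HOXB1 had 4.28 (3.44 to 5.31), HOXD1 2.77 (2.39 to 3.19), HOXD4 2.47 (2.20 to 2.76), HOXD3 2.30 (2.18 to 2.42) and HOXC4 2.05 (1.84 to 2.29). HOXB9 followed at 2.03 (1.89 to 2.18). HOXA2, HOXA5 and HOXB5 were below 1. Against the nuclei with SOX2 with and without TBXT, HOXC8 stood at 36.8 CPM in presomitic nuclei but at 84.6 and 87.1 there, HOXB9 at 128 against 106 and 121, and HOXD3 at 250.4 against 75.5 and 124.

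**Figure D4:**
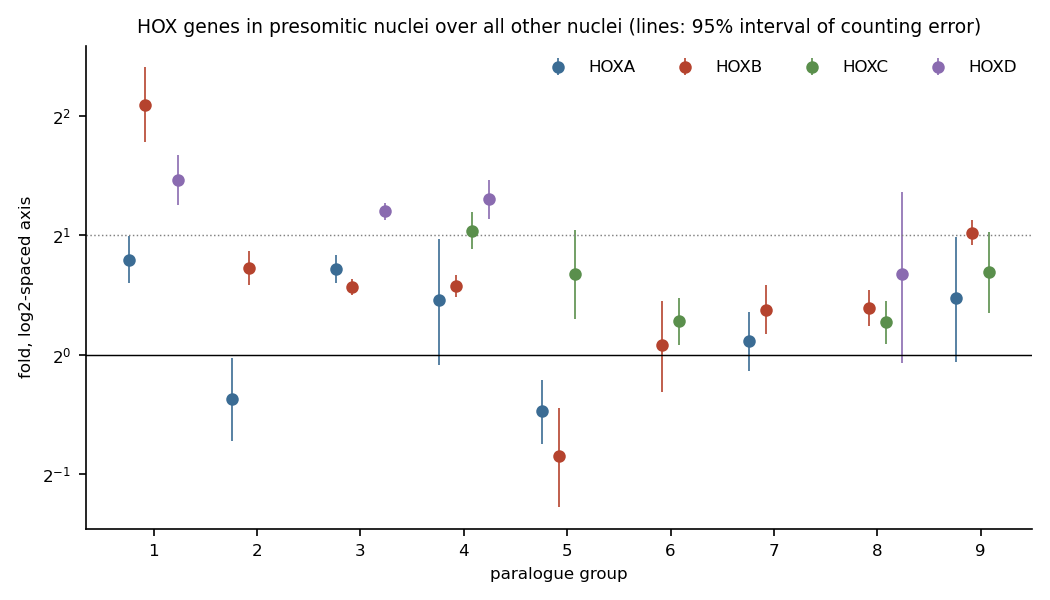
Fold of presomitic over all other nuclei (log2-spaced axis) for the 25 measured HOX genes by paralogue group, coloured by cluster of origin, with 95% intervals of counting error. HOXB1 and HOXD1 stand highest and HOXB5 lowest; no measured gene belongs to group 10 or above.

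Cell cycle genes were close to level. Beside the counts that follow, 1.67% of all genes were at least 2-fold higher and 5.55% at least 2-fold lower. All 52 G2/M genes had folds above 1, from 1.03 to 1.55 with a median of 1.21, and 0 passed 2-fold. Of 40 S phase genes 1 passed, the repressor E2F8 (2.25, 1.77 to 2.84), and the median was 1.04. The 20 glycolysis genes had a median of 1.08 and 0 passed in either direction, with the lowest, the glucose transporter SLC2A3, at 0.668 (0.600 to 0.741).

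Outside the lists, the gene with the highest fold was TAFA1, which encodes a small secreted protein, with 1155 UMIs in presomitic and 356 in all other nuclei. Its level was 143 against 6.99 CPM, a fold of 20.5 (18.2 to 23.2). KCNH5, a potassium channel, followed at 14.7 (13.002 to 16.6), then the non-coding LINC01374 at 14.3 (12.4 to 16.5) and SLC8A3, a sodium and calcium exchanger, at 11.9 (10.5 to 13.4). PDYN and PENK, precursors of opioid peptides, had folds of 8.87 (7.10 to 11.1) and 6.85 (5.04 to 9.33), and their lowest values under the settings tried were 5.67 and 2.94. With the UMIs divided between choice and reading, TAFA1 stood at 15.8 (13.6 to 18.4), KCNH5 at 13.9 and SLC8A3 at 10.02. With the rule on thinned nuclei TAFA1 stood at 7.41 (6.56 to 8.34), KCNH5 at 6.84 and SLC8A3 at 6.20, and 7.41 was the lowest value of TAFA1 under the settings tried.

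The other highest genes had folds between 5.10 and 8.82. They include receptors (EDAR of the TNF receptor family and the prolactin receptor PRLR), signalling enzymes and adaptors (RASGRP3, RASSF5 and DGKG), the sterol transporter ABCG1, TAFA4, CPA6, ZNF804B, TMEM178A, CCDC141 and the non-coding HIVEP2-DT, LINC00513 and LINC01722. Of these, ABCG1 had the most UMIs, with 1051 UMIs against 1205 (fold 5.52, 5.07 to 5.996).

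Among the 10 genes with the lowest folds, the matrix protein TNC had 5 UMIs in presomitic nuclei against 632 (ratio 0.0500, 0.0162 to 0.117) and the protease ADAMTS18 7 against 638 (0.0694, 0.0278 to 0.144). The other 8, SLC18A1, LINC02751, GASK1B-AS1, HCRTR2, SAMD5, COL24A1, DCDC2 and CNTNAP4, had 1 to 3 UMIs each against 122 to 290, and the upper ends of their intervals ran from 0.186 to 0.294. These ratios rest on few UMIs and moved with the rule. With a sum of 1 admitted, HCRTR2 stood at 0.506, COL24A1 at 0.471, SAMD5 at 0.423, GASK1B-AS1 at 0.418, TNC at 0.131 and ADAMTS18 at 0.196.

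To see whether presomitic nuclei resembled each other beyond the rule, all nuclei were clustered without TBX6, MSGN1 and SOX2. Of 9 clusters, cluster 4 took 310 of the 398 (77.9%), and they made up 63.1% of its 491 nuclei (58.7 to 67.4). Clusters 3 and 7 held 39 and 25, and no other cluster more than 9. Of the 15 nearest nuclei of a presomitic nucleus, 57.6% on average were presomitic, against 5.48% for other nuclei, and 30 had no such neighbour. The 10 leading genes of cluster 4 included TNFRSF11A, MSGN1 and TBX6, with TAFA1 and KCNH5 first.

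Cluster 4 also held 181 nuclei outside the rule. Of these, 34 had 2 or more UMIs of SOX2, 75 had a sum of 1, and 72 had a sum of 0 with SOX2 of at most 1. Their median depth was 15778 UMIs against 18800. DLL3 was 715 CPM (684 to 747) against 748 (726 to 770) in presomitic nuclei of the cluster, LEF1 1045 against 1141, and HOXD3 285 against 290.4. They had more MESP2 (93.97 against 61.8) and PCDH8 (109 against 43.6) and less TAFA1 (59.1 against 188). TNFRSF11A was 25.3 (19.8 to 31.9) against 44.5 (39.3 to 50.1).

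Cluster 3 held the 39 presomitic nuclei that differ most. They had a median of 25892 UMIs, and 2 were marked as doublets. CHRD, an antagonist of BMP made by the notochord, stood at 543 CPM (499 to 590) in them and at 8.33 (6.18 to 10.98) in those of cluster 4. NOTO was 230.4 against 6.49, FOXA2 150.3 against 3.83, SHH 86.9 against 2.00 and TBXT 137 against 33.97. Some presomitic genes went the other way, with TNFRSF11A at 6.83 (2.75 to 14.1), MSGN1 at 9.76 and DLL3 at 179. TBXT, also on the presomitic list, did not. Over all nuclei of each cluster, HES7 was higher in cluster 3 than in cluster 4 (230 against 154 CPM) and FGF17 lower (18.2 against 167). The TBX6 level of 109 (90.0 to 132) in the 39 nuclei came from the rule. The part of these axial nuclei in the results above was not tested other than by leaving out their cluster.

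The 49 presomitic nuclei outside clusters 3 and 4 leaned to somite genes, with PCDH8 at 329 CPM against 43.6 in cluster 4, RIPPLY1 at 211 against 17.1, MEOX1 at 510 against 117 and PAX3 at 284 against 59.5. DLL3 was 654 in them, and TNFRSF11A 7.83 (3.38 to 15.4).

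Among presomitic nuclei, those with TBX6 alone and those with both rule genes also differed in genes the rule did not read. MESP2 was at 88.3 CPM (79.1 to 98.2) with TBX6 alone and 33.1 (27.7 to 39.1) with both, RIPPLY2 at 96.9 and 32.3, PCDH8 at 114 and 39.2, and MEOX1 at 231 and 84.3. FGF17 was at 115 (104 to 126) and 193 (180 to 207), and TNFRSF11A at 26.3 (21.4 to 31.95) and 43.6 (37.4 to 50.5). The median depths of the subsets were 20043 and 19225 UMIs. Nuclei with TBX6 alone also carried axial genes, with CHRD at 121 CPM, NOTO at 51.6 and FOXA2 at 37.8. Both subsets were read with the axial cluster included. The part of axial nuclei in these differences, including those of TNFRSF11A and FGF17, was therefore not tested. Nuclei with MSGN1 alone were too few to describe.

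TNFRSF11A moved with the sum of the rule genes. Its level was 17.6 (12.5 to 24.2) at a sum of 2, 32.2 (26.2 to 39.1) at 3 to 5 and 51.9 (43.8 to 61.2) at 6 or more, with median depths of 18127, 18496.5 and 21747 UMIs. PCDH8 moved the other way, from 143 to 72.3 and 23.2. Just outside the rule, nuclei with a sum of 1 had 4.94 of TNFRSF11A and 267 of DLL3, and those left out for SOX2 had 21.7 (14.9 to 30.7) and 385 (354 to 418).

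The 310 presomitic nuclei of cluster 4 were then split by the sum of MESP2, RIPPLY1, RIPPLY2 and PCDH8, with 109 nuclei at 2 or more UMIs and 201 at 0 or 1. MEOX1, a somite homeobox factor that the split did not use, was at 275 against 24.1 CPM, a fold of 11.4 (9.16 to 14.4). MESP1 was 4.32-fold (3.04 to 6.21), FGF18 3.11-fold (2.64 to 3.67), FOXC2 3.08-fold (2.67 to 3.56) and DLL1 1.87-fold higher (1.68 to 2.08). PAX3 had a fold of 2.19 (1.76 to 2.71) and LFNG of 1.77 (1.48 to 2.12). Posterior genes were lower in the same nuclei. MSGN1 had a fold of 0.461 (0.358 to 0.587), TBXT of 0.494 (0.348 to 0.690), FGF17 of 0.360 (0.306 to 0.421), WNT3A of 0.244 (0.145 to 0.392) and FGF4 of 0.146 (0.0458 to 0.361). TAFA1 was at 62.9 against 261. TBX6 (0.860, 0.758 to 0.974), DLL3 (1.06, 1.0004 to 1.13) and HES7 (0.944, 0.826 to 1.08) differed little. The median depths were 20461 and 18379 UMIs, and 5 and 4 nuclei were marked as doublets.

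**Figure D5:**
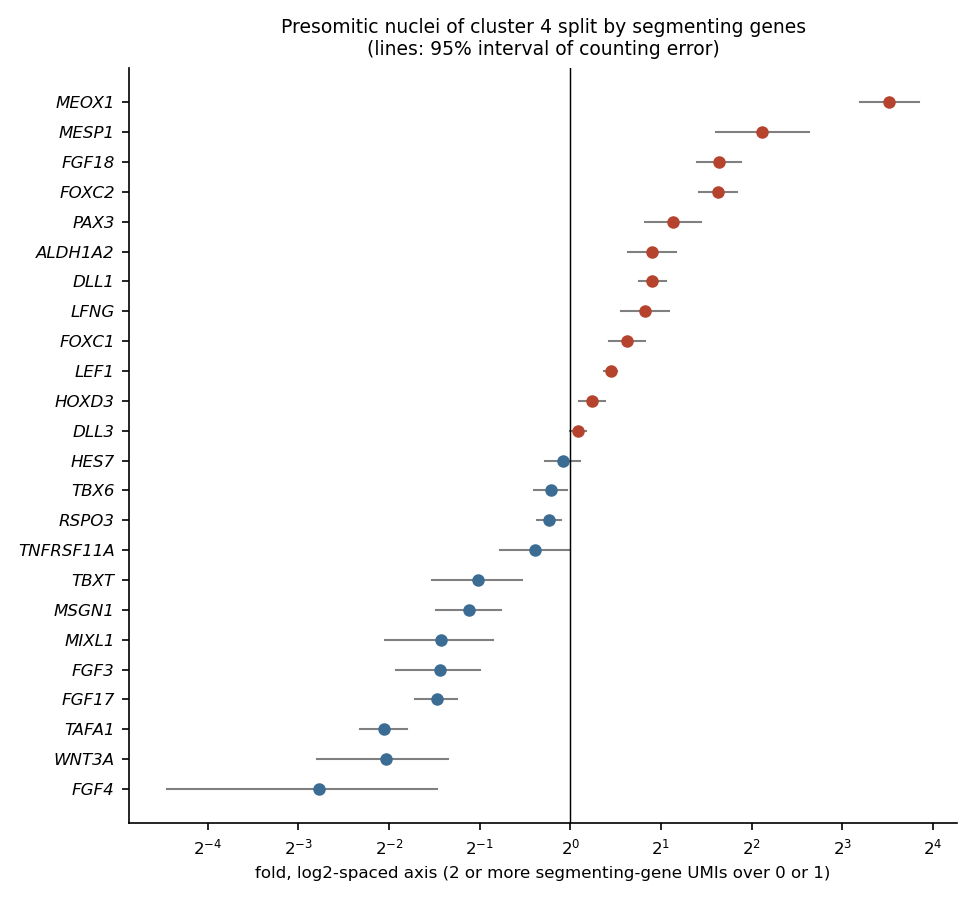
Fold (log2-spaced axis, with 95% intervals of counting error) between presomitic nuclei of cluster 4 with 2 or more UMIs of MESP2, RIPPLY1, RIPPLY2 and PCDH8 (109 nuclei) and those with 0 or 1 (201 nuclei). MEOX1 and MESP1 stand farthest to the higher side and FGF4, WNT3A and TAFA1 to the lower side, with DLL3, HES7 and TBX6 near 1.

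The spread between nuclei differed by gene. Over 390 presomitic nuclei thinned to 5000 UMIs, the Fano factor (variance over mean, near 1 for counting alone) had a median of 1.09 over 7747 genes and a 90th percentile of 1.42. MESP2 reached 5.75, with a UMI in 13.8% of these nuclei and up to 18 in 1 nucleus, PCDH8 4.71, MEOX1 4.02 and RIPPLY2 3.55. LEF1 had 2.58, FGF17 2.43, HES7 2.17, DLL3 2.10, DLL1 2.06 and LFNG 1.62. MSGN1 had 1.41, and TBX6, whose UMIs the rule bounds from below, 1.05. For MESP2 the share with a UMI was 26.9% unthinned, and 3.09% thinned and 7.19% unthinned in PAX3 nuclei, whose median depth was 14340.5 UMIs against 19453.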

How the data were processed

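Single-nucleus RNA and ATAC libraries came from 1 gastruloid preparation. The deposited values are raw UMI counts per gene and nucleus. The authors made them with Cell Ranger, per the labels, and the deposited peaks (positions only, called over all nuclei) carry cellranger-arc 2.0.0 and a GRCh38 reference in their header. Introns and strand settings are not given in the sources used here. Symbols came from the gene name table: 15559 of 17493 genes had one.

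Of 3646 nuclei, 224 were left out by the filters of 1000 UMIs and 25% mitochondrial UMIs. The others held 1018 to 107733 UMIs. UMIs were summed over nuclei without further normalization. Intervals were exact Poisson, conditional Poisson and binomial at 95%, computed with scipy 1.17.1. Folds were tested on simulated data. Clusters used scanpy 1.11.5 and leidenalg 0.10.2 (resolution 0.5, 2000 variable genes, 30 components, 15 neighbours), and figures used matplotlib 3.10.9. The lists hold genes known for each tissue or pathway. Beyond them, the 20 highest and 10 lowest measured genes with a symbol and an interval excluding 1 were named, and a few others are said to have been picked after their values were seen. The members and lists were chosen with earlier results of these data known. Alternatives changed the filters, the rule, the depth range, doublets, the averaging, the gene minimum and the fold. Bulk libraries were left out, since they hold no nuclei.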

Additional observations from a re-analysis of the deposited data

How the results depend on the processing

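With 1 preparation, no alternative measures the variation between gastruloids, and depth limits the share of nuclei found. The share of 11.6% became 24.1% with a TBX6 and MSGN1 sum of 1 admitted, 8.27% with a sum of 3 required, 9.29% with SOX2 at 0, 4.29% with the rule on thinned nuclei, 12.95% among nuclei of 10000 to 30000 UMIs and 7.80% with the rule on a random part of the UMIs. The 256 higher genes became 143 with a sum of 1 and 609 at 1.5-fold. The 852 lower genes became 189 with a sum of 1, 496 with at most 15% mitochondrial UMIs, 1581 with the rule on thinned nuclei and 1847 at 1.5-fold. The presomitic median of 1.62 became 2.51 with at most 15% mitochondrial UMIs, 1.43 with SOX2 at 0, 2.04 with the divided UMIs and 3.22 without the axial cluster. The settings with divided UMIs and without the axial cluster were added after the data were seen. Among 689 folds of 53 genes over 13 settings, 483 stayed inside their main interval, 198 moved outside it and 8 with a main interval excluding 1 changed direction. These 8 were FGF17 at 0.959 with a sum of 1, LFNG at 0.936 and PCDH8 at 0.972 with a sum of 3, LFNG at 0.840 and PCDH8 at 0.610 with the rule on thinned nuclei, LFNG at 0.864 and PCDH8 at 0.906 with the divided UMIs, and TBXT at 1.38 without the axial cluster. The cause was not tested. No paired analysis was possible because there was 1 preparation and no test.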

Other observations

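Genes outside the lists also varied among the presomitic nuclei, and those given here were chosen after their values were seen. In cluster 4, nuclei with 2 or more UMIs of the segmenting genes had 49.9 CPM of KIRREL3, a cell adhesion protein, against 1.59 (31.4-fold, 13.97 to 87.4), 80.4 of the cation channel TRPC6 against 7.68 (10.5-fold, 7.05 to 16.1) and 375 of RELN, a secreted matrix protein, against 67.8 (5.54-fold, 4.81 to 6.40). ISM1, a secreted protein, was at 479 against 109.8 (4.36-fold, 3.89 to 4.90), and the hormone gene PRL at 701 against 178 (3.93-fold, 3.59 to 4.31). On the other side stood FGF19, at 13.02 against 56.6 (0.230, 0.150 to 0.340), and SLC8A1, a sodium and calcium exchanger related to SLC8A3, at 22.5 against 106 (0.212, 0.154 to 0.284).

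The gene with the highest Fano factor over the 390 thinned presomitic nuclei was TFF3, a secreted trefoil peptide, at 29.3, with up to 92 UMIs in 1 nucleus. Its level was 3030 CPM in the 44 presomitic nuclei with 3 or more UMIs of TBXT and 183 in the 218 without TBXT (16.6-fold, 15.3 to 18.0). Every gene of the axial list was also higher in those 44 nuclei. Among them, CHRD was at 325 against 13.7 CPM, NOTO at 113 against 10.1 and FOXA2 at 94.8 against 6.83. The part of axial nuclei in the spread of TFF3 was not tested. PRL had a Fano factor of 9.32.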
